A study of Mus musculus with 6 samples.

Results

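The common gamma chain receptors are a family of cytokine receptors that share one subunit, encoded by Il2rg, and the kinases that dock to them. The 9 genes described here were taken by symbol from a table of 23268 genes: the receptor chains Il2ra, Il2rb, Il2rg, Il7r, Il4ra, Il15ra and Il21r, and the kinases Jak1 and Jak3. All 9 passed the filter for the test, which left out genes whose FPKM averaged below 1. FPKM counts sequenced fragments relative to transcript length and to the library's total, so levels of different genes can be set side by side.

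The samples were group 2 innate lymphoid cells (ILC2s), lymphocytes without an antigen receptor that are known for type 2 cytokines, isolated from colons of C57BL/6 mice that were 6 to 8 weeks old. Controls drank water and the other group drank 3% dextran sulfate sodium (DSS), which damages the gut lining and inflames the colon, for 6 days. No genetic change is named for either group, and each has 3 RNA-seq libraries. The labels do not give the surface markers of the sort or say whether a library is 1 mouse or a pool. The p-values therefore reflect only how far these libraries vary, which may be technical. The comparison asks how transcripts of the family differ between ILC2s of inflamed and of water-fed colon.

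Each receptor of the family joins the gamma chain to a chain of its own. IL-4 binds IL-4Rα with the gamma chain, IL-7 binds IL-7Rα with it, and IL-21 binds IL-21R with it. IL-2 and IL-15 share IL-2Rβ and the gamma chain and are each captured by a private α chain, IL-2Rα (CD25) or IL-15Rα. JAK3 docks to the gamma chain and JAK1 to its partner, and together they phosphorylate STAT proteins, mainly STAT5, or STAT6 after IL-4 and STAT3 after IL-21. IL-2 and IL-7 are known to sustain ILC2s, and CD25 and IL-7Rα are often used as ILC2 surface markers.

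The libraries did not stand apart by treatment alone. Recovered depths were 9962415 to 23119390 fragments per library. The first principal component (48.1% of variance) set DSS replicate 3, and less far control replicate 3, apart from the others and the second (28.5%) DSS replicate 1. DSS replicate 1 also differed from its group mates by gene length. Over the 4520 genes averaging 10 FPKM or more, its median difference from the mean of DSS replicates 2 and 3, on the log2(FPKM + 1) scale, was 0.56 for the shortest of 3 length classes, −0.28 for the middle and −0.46 for the longest. In the 3 control libraries these medians lay between −0.043 and 0.030. Set against the other 2 DSS libraries in the same way, DSS replicate 3 gave −0.45, 0.12 and 0.30, a trend in the other direction. Values of the 9 genes and of the pathway genes below are therefore also given without DSS replicate 1 where it moved them. ILC2 markers were abundant, with Gata3 at 287 to 885 FPKM. Of the 10 listed neutrophil markers, 6 were tested and 3 passed, S100a8, S100a9 and Retnlg, all higher in DSS. The list summed to 3.10 to 8.57 FPKM in controls and 67.1 to 105.6 in DSS, mostly from these 3 genes, and the other 7, Ly6g among them, overlapped between the groups. In bulk RNA, fewer cells of a type and less RNA per cell cannot be told apart.

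None of the 9 genes passed the test across all genes (limma, adjusted p under 0.05), which called 27 of 12187 genes, or 0.222%. At an unadjusted p under 0.05 there were 3 of 9, Il2ra, Il2rb and Il21r, against 8.99% of all genes tested. All 3 were lower in DSS, as were 5.42% of all genes at that threshold. With limma voom on the recovered fragments 0 of 9 passed, against 0.148% of all genes, and 4 had an unadjusted p under 0.05, against 9.51% of all genes. By log2 change 7 of 9 were lower in DSS, against 46.9% of all genes, with a median of −0.40 where the median of all genes was 0.03. For Il2ra, Il2rb, Il2rg and Il21r every DSS library lay below every control library, which held for 9.60% of genes tested. For the other 5 the groups overlapped.

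**Figure D1:**
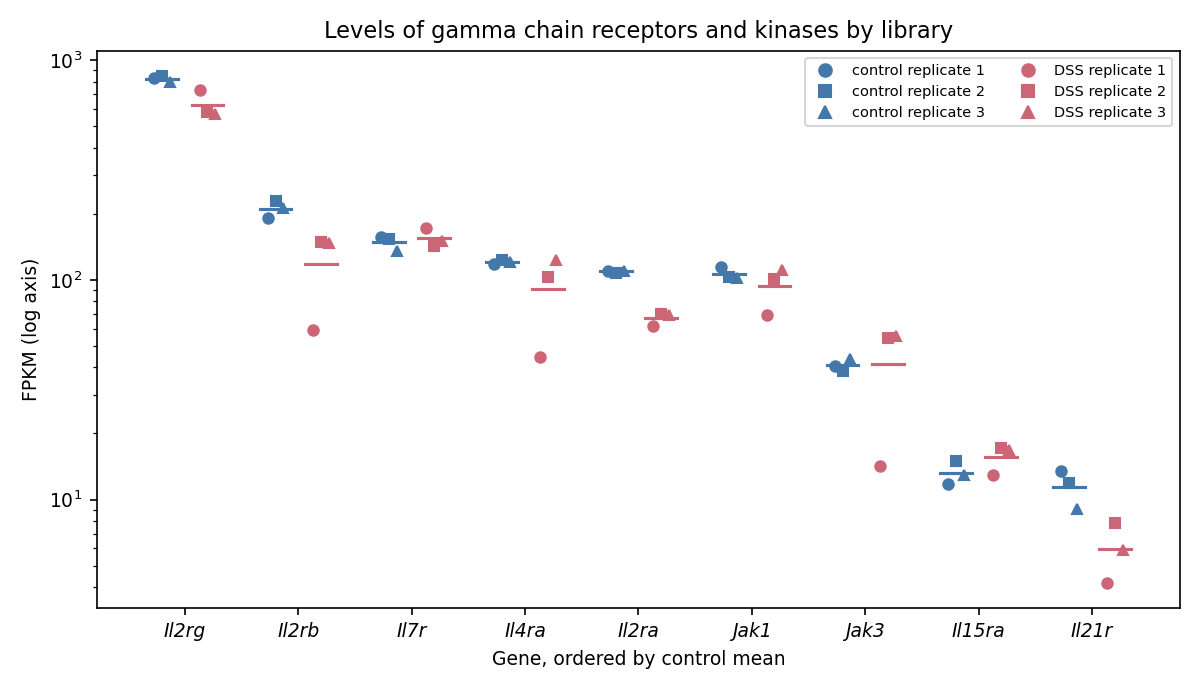
FPKM (log axis) of each gene in each of the 3 control (blue) and 3 DSS (red) libraries, with the replicate shown by the symbol and the group mean by a bar. Il2ra, Il2rb, Il2rg and Il21r have all DSS libraries below all control libraries, and DSS replicate 1 (red circle) is the lowest of the 6 libraries for 6 of the 9 genes.

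In control ILC2s the gamma chain transcript was by far the most abundant of the family. Its levels of 795 to 848 FPKM were followed by Il2rb (191 to 229), Il7r (136 to 156) and Il4ra (118 to 123), and these ranges do not overlap. Il2ra (108 to 110) and Jak1 (102 to 115) could not be ordered beyond their spread. Jak3 lay below them at 38.5 to 43.5. The least abundant were Il15ra (11.7 to 14.98) and Il21r (9.08 to 13.4), which overlapped. In DSS libraries Il2rg was still first, at 568 to 734. Il7r (143 to 173) and Il2rb (58.9 to 149) no longer formed separate ranges there, while Il15ra (12.9 to 17.1) and Il21r (4.19 to 7.81) now did. The 7 receptor chains together summed to 1396 to 1488 FPKM in controls and 1074 to 1089 in DSS. Il2rg made up 56.9% to 58.0% of that sum in controls, 67.4% in DSS replicate 1, and 54.3% and 52.6% in DSS replicates 2 and 3. Of these chains only Il2rg is in the shortest length class. The median of that class against group mates was 0.56, −0.085 and −0.45 in DSS replicates 1, 2 and 3, the same order as these shares. The part of the length trend in the shares was not tested.

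Il2rg, the shared signalling chain, measured 828, 848 and 795 FPKM in control replicates 1, 2 and 3 and 734, 583 and 568 in DSS replicates 1, 2 and 3. The groups did not overlap, and DSS replicate 1 lay nearest to the controls. The mean was 824 ± 26.7 (SD, n = 3) in controls and 628 ± 91.6 (SD, n = 3) in DSS, a log2 change of −0.40 ± 0.21 SE (limma adjusted p = 0.646). Without DSS replicate 1 the change was −0.52 ± 0.12 SE (limma adjusted p = 0.0532). Il2rg lies on chromosome X (mm10, 101264378 to 101268255, minus strand) and shares 728 bp of exon with Gm20489, a protein-coding model on the same strand. Gm20489 has no entry among the deposited values, and how fragments in the shared stretch were counted is not known.

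Il2ra, which encodes the α chain that gives the IL-2 receptor its high affinity, had the most even separation of the family. It measured 110.1, 107.8 and 109.9 FPKM in controls and 61.4, 69.8 and 69.1 in DSS. All 3 DSS libraries, including DSS replicate 1, sat within a narrow band well below the controls. The means were 109 ± 1.27 and 66.8 ± 4.64 (SD, n = 3 each), 1.64-fold lower in DSS, with a log2 change of −0.70 ± 0.18 SE and a 95% interval of −1.11 to −0.30. This did not pass over all genes (limma adjusted p = 0.196). Without DSS replicate 1 it was the 1 gene of the 9 that passed, at −0.65 ± 0.12 SE (limma adjusted p = 0.0139), in a fit that called 3.39% of all genes. In that fit 5 of 9 had an unadjusted p under 0.05, against 16.6% of all genes. Its adjusted p ranged from 0.0130 to 0.829 over the 30 alternatives run. The gene lies on chromosome 2 (mm10, 11642807 to 11693193, plus strand).

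Il2rb encodes the β chain used by IL-2 and IL-15. It measured 191, 229 and 213 FPKM in controls and 58.9, 149 and 147 in DSS. Every DSS library was lower, but DSS replicate 1 was 2.51-fold below the mean of the other 2. The log2 change was −0.95 ± 0.34 SE (95% interval −1.70 to −0.19, limma adjusted p = 0.393). Without DSS replicate 1 it was −0.51 ± 0.13 SE (limma adjusted p = 0.0576), a change in size of over 1.5 times. Il2rb lies on chromosome 15 (mm10, 78479256 to 78495271, minus strand), and no other annotated gene overlaps it.

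Il15ra, the α chain for IL-15, did not share this direction. It measured 11.7, 14.98 and 12.9 FPKM in controls and 12.9, 17.1 and 16.8 in DSS, so the groups overlapped. The log2 change was 0.22 ± 0.21 SE with a 95% interval of −0.26 to 0.70 (limma adjusted p = 0.834). It was 0.34 without DSS replicate 1, and 0.15 without control replicate 1 or without DSS replicate 2. It lies 12.1 kb beyond Il2ra on chromosome 2 (mm10, 11705290 to 11734317), on the same strand. Within each library Il2ra was 9.38, 7.20 and 8.52 times Il15ra in controls and 4.75, 4.07 and 4.12 times in DSS. This ratio cannot be altered by library scaling. Its log2 difference was −0.95 ± 0.13 SE, with every DSS library below every control library (exact permutation test, two-sided, p = 0.1, the smallest that 3 against 3 allows, and 0.333 adjusted over the 10 ratios tested). Leaving out any 1 library gave −1.05 to −0.86.

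Il7r, the IL-7 receptor chain, measured 156, 153 and 136 FPKM in controls and 173, 143 and 150 in DSS, with the highest value in DSS replicate 1. The groups overlapped, with a log2 change of 0.07 ± 0.19 SE and a 95% interval of −0.36 to 0.50 (limma adjusted p = 0.952). Without DSS replicate 1 the change was −0.014. The gene lies on chromosome 15 (mm10, 9505788 to 9530176, minus strand). Relative to the gamma chain, however, Il7r stood higher in every DSS library. Its ratio to Il2rg was 0.189, 0.181 and 0.170 in controls and 0.236, 0.246 and 0.264 in DSS, a log2 difference of 0.47 ± 0.063 SE (exact permutation test, two-sided, p = 0.1, adjusted 0.333). Leaving out any 1 library gave 0.42 to 0.50, and removing each library's trend with gene length gave 0.58.

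Of the 10 ratios compared, 3 had no overlap between the groups: Il2ra to Il15ra and Il2ra to Il2rg were lower in DSS and Il7r to Il2rg was higher. The Il2ra to Il2rg ratio was 0.133, 0.127 and 0.138 in controls and 0.0837, 0.1196 and 0.122 in DSS. Its log2 difference of −0.31 ± 0.18 SE (exact permutation test, p = 0.1, adjusted 0.333) was −0.14 without DSS replicate 1. With each library's trend with gene length removed it was −0.18. The Il2ra to Il2rb ratio was 0.576, 0.470 and 0.515 in controls, 1.042 in DSS replicate 1, and 0.469 and 0.470 in DSS replicates 2 and 3. In DSS replicates 2 and 3 the α and β chains stood close to the lowest proportion in the controls, and in DSS replicate 1 they did not. The log2 difference over all libraries was 0.24 ± 0.39 SE (exact permutation test, p = 0.9). Il15ra to Il2rg was 0.0142, 0.0177 and 0.0162 in controls and 0.0176, 0.0293 and 0.0295 in DSS (log2 difference 0.64 ± 0.26 SE, exact permutation test, p = 0.2, adjusted 0.4).

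**Figure D2:**
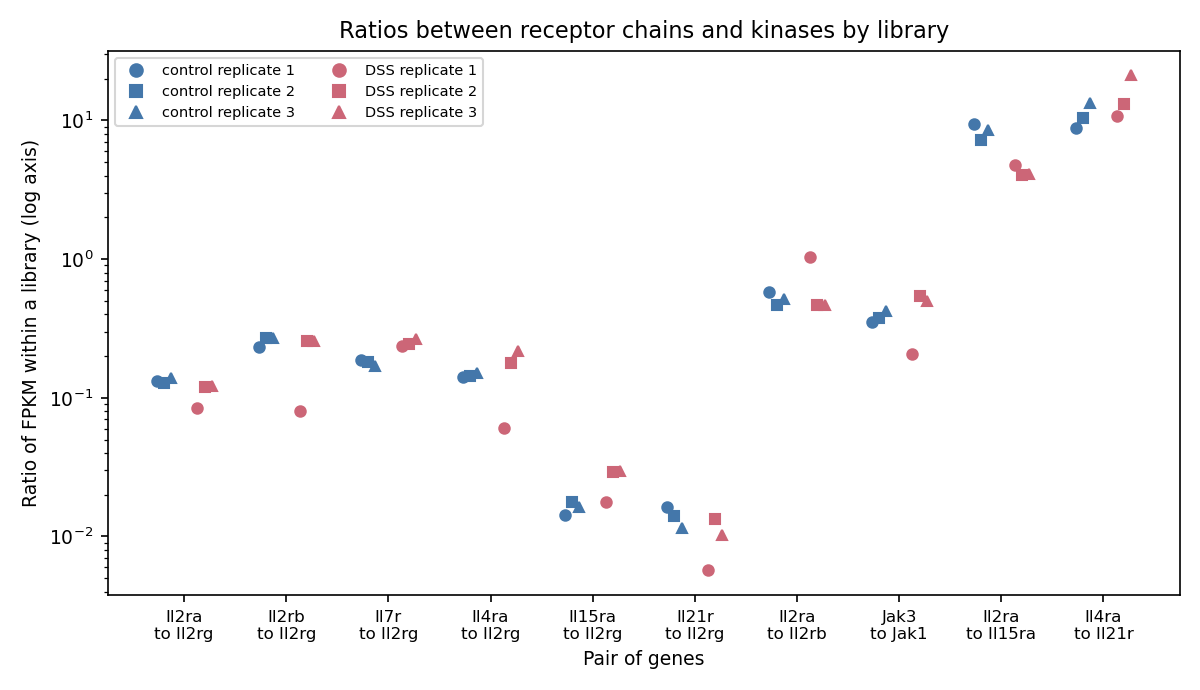
Ratio of FPKM between 2 genes within the same library (log axis) for 10 pairs, with controls in blue, DSS in red and the replicate shown by the symbol. Il7r to Il2rg lies higher (0.236 to 0.264 against 0.170 to 0.189), and Il2ra to Il15ra lower (4.07 to 4.75 against 7.20 to 9.38), in all 3 DSS libraries.

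Il4ra encodes the chain that binds IL-4 and, with another partner, IL-13. It measured 118, 123 and 121 FPKM in controls and 44.8, 103 and 124 in DSS. DSS replicate 1 was low, and DSS replicate 3 was above all controls. The log2 change of −0.53 ± 0.34 SE (95% interval −1.28 to 0.23, limma adjusted p = 0.731) was −0.088 without DSS replicate 1. The gene lies on chromosome 7 (mm10, 125552120 to 125579474, plus strand) and shares 571 bp of exon with the antisense model Gm44876, which these unstranded libraries cannot separate. Gm44876 too has no entry among the deposited values.

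Il21r, which encodes the IL-21 receptor chain, starts 24.0 kb beyond Il4ra on the same strand (mm10, chromosome 7, 125603429 to 125633570). It measured 13.4, 11.9 and 9.08 FPKM in controls and 4.19, 7.81 and 5.86 in DSS, and all DSS libraries were below all controls. The means were 11.5 ± 2.21 and 5.96 ± 1.81 (SD, n = 3 each), 1.92-fold lower, with a log2 change of −0.86 ± 0.26 SE (95% interval −1.45 to −0.27, limma adjusted p = 0.303). Its values rest on 148 to 785 fragments, so counting alone leaves an error of about 8.22% in its thinnest library. Without DSS replicate 1 the change was −0.66 ± 0.22 SE (limma adjusted p = 0.136). The Il4ra to Il21r ratio was 8.76, 10.3 and 13.3 in controls and 10.7, 13.2 and 21.1 in DSS, with overlap (log2 difference 0.44 ± 0.34 SE, exact permutation test, p = 0.3). The difference was 0.16 without DSS replicate 3 and 0.65 without DSS replicate 1.

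Jak1, the kinase of the chains that partner the gamma chain, measured 115, 103 and 102 FPKM in controls and 69.2, 101 and 111 in DSS (log2 change −0.21 ± 0.22 SE, 95% interval −0.71 to 0.29, limma adjusted p = 0.854). The groups overlapped, and without DSS replicate 1 the change was −0.011. Jak1 lies on chromosome 4 (mm10, 101152367 to 101265282, minus strand).

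Jak3, the kinase of the gamma chain, gave the widest split within a group. It measured 40.4, 38.5 and 43.5 FPKM in controls, 14.2 in DSS replicate 1, and 54.2 and 55.6 in DSS replicates 2 and 3. DSS replicate 1 lay below all controls and the other 2 DSS libraries above all controls, so the group mean of 41.4 ± 23.5 (SD, n = 3) describes none of them. The log2 change was −0.20 ± 0.44 SE (95% interval −1.19 to 0.79, limma adjusted p = 0.929), and without DSS replicate 1 its sign turned, to 0.42 ± 0.13 SE (limma adjusted p = 0.112). The Jak3 to Jak1 ratio was 0.352, 0.374 and 0.425 in controls, 0.206 in DSS replicate 1, and 0.539 and 0.501 in DSS replicates 2 and 3. Jak3 lies on chromosome 8 (mm10, 71676296 to 71690575, plus strand) and shares 404 bp of exon with Insl3, listed at 1.82 to 6.36 FPKM.

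**Figure D3:**
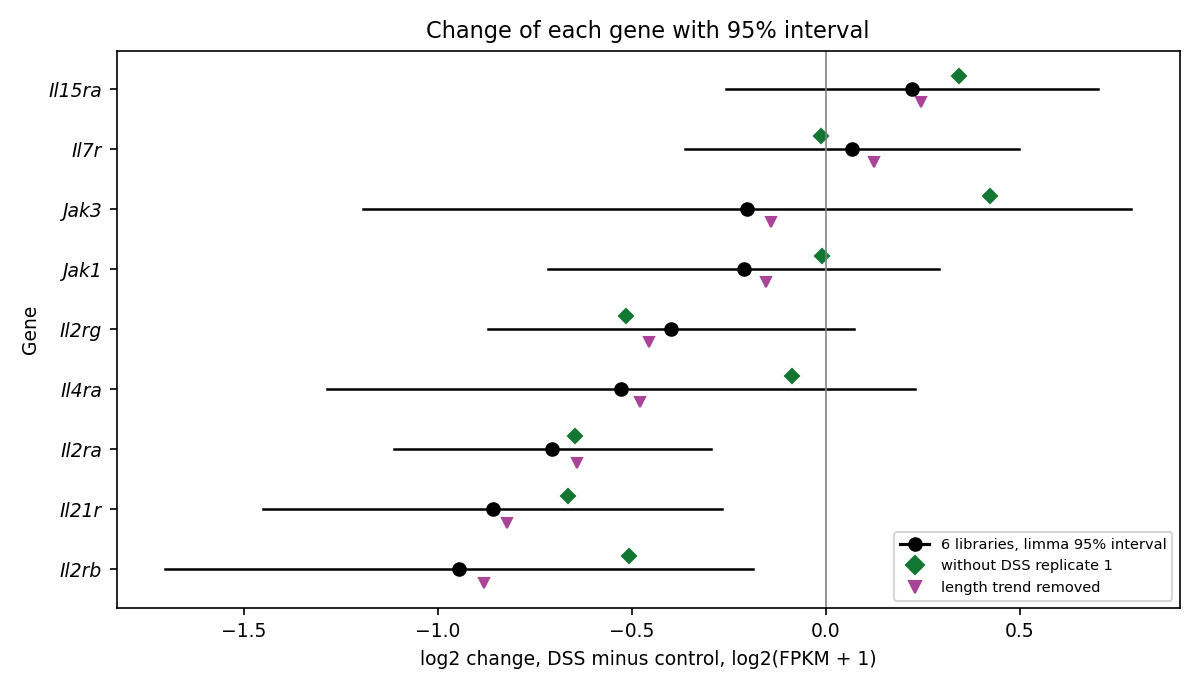
Log2 change of each gene, DSS minus control, with its limma 95% interval over all 6 libraries (black), the value without DSS replicate 1 (green diamonds) and the value after removal of each library's trend with gene length (purple triangles). The intervals of Il2ra, Il2rb and Il21r lie below 0, and Jak3 moves from −0.20 to 0.42 without DSS replicate 1.

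DSS replicate 1 was the lowest of all 6 libraries for 6 of the 9 genes, Il2ra, Il2rb, Il4ra, Il21r, Jak1 and Jak3. For Il2rg and Il7r it was the highest DSS library. The gene lengths implied by the FPKM values were 1690 bases for Il2rg, 2342 and 2528 for Il15ra and Il21r, and 3582 to 5318 for the other 6. Among genes of the longest class, the deviation of DSS replicate 1 from its group mates was −1.87 for Jak3, lower than in all but 0.398% of the class. It was −1.32 for Il4ra and −1.31 for Il2rb, against the class median of −0.46. Il2ra (−0.17) and Il7r (0.24) of the same class deviated less or the other way. The Il2rg deviation of 0.35 was below the 0.56 of its short class. After removal of each library's length trend, an alternative chosen after seeing the data, the log2 changes were −0.64 for Il2ra, −0.88 for Il2rb, −0.46 for Il2rg and −0.82 for Il21r. None of the 9 passed there (limma, 16 genes or 0.131% called), and 3 had an unadjusted p under 0.05, against 10.1% of genes. Whether RNA quality accounts for the values of this library was not tested.

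**Figure D4:**
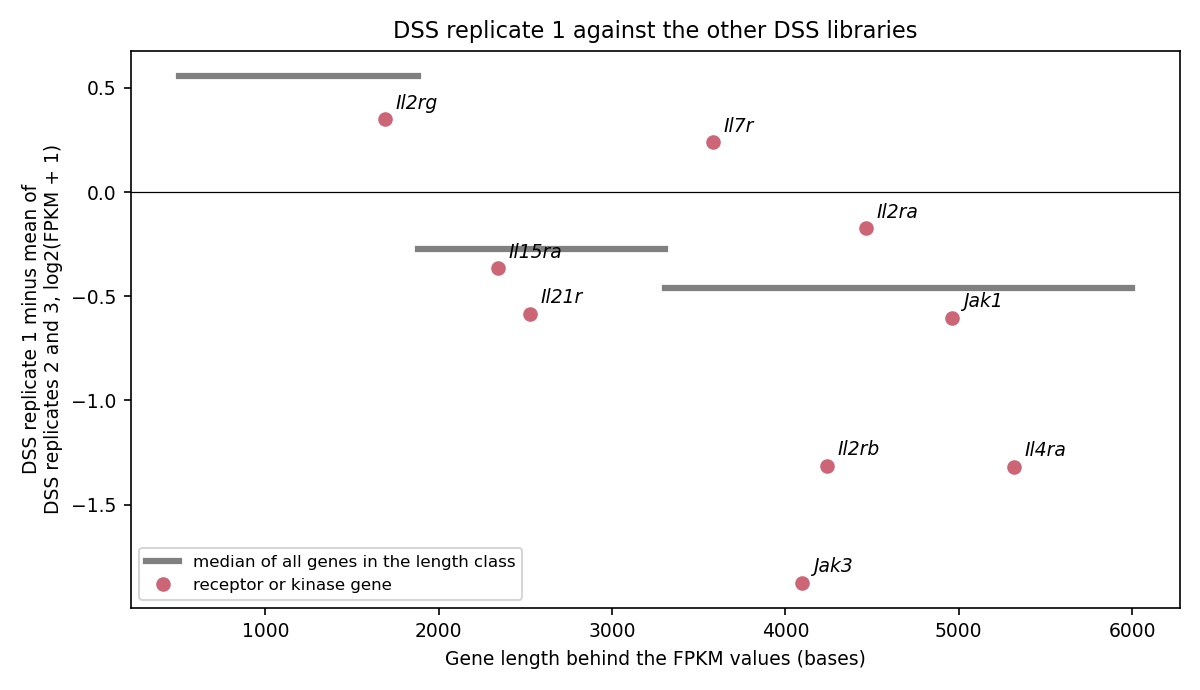
Difference of DSS replicate 1 from the mean of DSS replicates 2 and 3 on the log2(FPKM + 1) scale, against the gene length implied by the FPKM values, for each of the 9 genes (points) and as the median of all genes in 3 length classes (grey bars, drawn over the plotted range only). Jak3, Il2rb and Il4ra lie far below the bar of their class, while Il7r lies above it.

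The start regions of the genes whose groups did not overlap are shown to set their letters side by side. RefSeq start regions (GRCm38.p6, the build of mm10) were matched for 8 of the 9 genes, with Il2rb the exception. The 250 bases before the start are printed 5′ to 3′ on the gene's strand. Capitals mark the NF-kB motif in Il2ra (chr2:11642542-11642791, plus strand), and in the others TGTGGT or ACCACA, the letters of the RUNX core on either strand, and CCGGAAG, an ETS-type motif (Il2rg chrX:101268256-101268505, minus strand, and Il21r chr7:125603179-125603428, plus strand).
Il2ra: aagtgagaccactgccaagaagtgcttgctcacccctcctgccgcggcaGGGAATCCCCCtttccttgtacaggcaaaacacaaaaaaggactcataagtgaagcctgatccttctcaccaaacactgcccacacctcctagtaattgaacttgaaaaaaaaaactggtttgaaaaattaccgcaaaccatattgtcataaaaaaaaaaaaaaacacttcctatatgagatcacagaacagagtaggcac
Il2rg: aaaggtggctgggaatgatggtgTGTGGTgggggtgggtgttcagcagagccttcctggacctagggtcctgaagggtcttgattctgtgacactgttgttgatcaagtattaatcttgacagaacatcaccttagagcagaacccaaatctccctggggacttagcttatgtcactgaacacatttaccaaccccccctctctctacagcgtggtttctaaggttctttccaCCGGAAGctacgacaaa
Il21r: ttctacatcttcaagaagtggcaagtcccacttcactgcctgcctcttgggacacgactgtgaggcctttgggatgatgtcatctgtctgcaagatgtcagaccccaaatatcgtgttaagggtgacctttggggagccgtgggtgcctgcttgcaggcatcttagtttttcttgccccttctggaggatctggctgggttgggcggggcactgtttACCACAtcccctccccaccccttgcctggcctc

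A set of 6 motifs was searched on both strands in these windows. The NF-kB motif was found in 7.25% of 32851 start regions and, of the 8 genes, in Il2ra alone, where overlapping matches run from 201 to 191 bases before the start. TGTGGT was found in 14.0% of regions and in Il2rg and Il21r. CCGGAAG was found in 6.91% of regions, in Il2rg and in 1 of the 2 start regions of Il15ra. TTCNNNGAA, the STAT5-type motif, was found in 7.02% and in Il7r alone, shown here with 10 bases on either side (chr15:9530000-9530028, minus strand, motif in capitals).
Il7r: gttcaggagcTTCAGGGAAtaccaagatg
The STAT6-type motif TTCNNNNGAA (5.85% of regions) and the GATA-type AGATAA (9.99%) were in none of the 8. These matches describe letters, not binding.

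Further chains that belong to the same receptors were measured too. Il9r, the IL-9 receptor chain that also pairs with the gamma chain, measured 24.3, 20.3 and 22.8 FPKM in controls and 12.99, 14.95 and 19.2 in DSS. All DSS libraries were lower (log2 change −0.51 ± 0.22 SE, limma adjusted p = 0.516). Crlf2, which joins IL-7Rα to form the TSLP receptor without the gamma chain, measured 15.7, 13.6 and 17.0 in controls and 18.7, 31.4 and 17.8 in DSS. All DSS libraries were higher (0.48 ± 0.25 SE, limma adjusted p = 0.644), where 6.35% of genes had such a separation upward. Il13ra1 and Il13ra2 were under 1 FPKM in all 6 libraries.

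Of the 8 listed cytokines that signal through these chains, 6 were tested and 0 passed. Il2 measured 90.0, 86.7 and 75.2 FPKM in controls and 94.3, 49.1 and 30.4 in DSS, with its highest value in DSS replicate 1. Il4 did the same, at 704, 708 and 774 in controls and 1025, 517 and 411 in DSS. Both overlapped between the groups, and DSS replicate 1 also had the highest sum of T cell markers. At 1158 and 612 bases, Il2 and Il4 are in the shortest length class. Against group mates, the median of that class was 0.56 for DSS replicate 1 and −0.45 for DSS replicate 3. Neither the source of these transcripts nor the part of the length trend in them was tested. Il9 measured 8.60 ± 0.434 and 1.116 ± 1.120 (SD, n = 3 each), the lowest log2 change among these cytokines (−2.34 ± 0.41 SE, limma adjusted p = 0.0763). Il15 measured 5.11, 3.99 and 3.60 in controls and 4.79, 8.90 and 7.84 in DSS, which overlapped. When DSS replicate 1 was left out, Il2 (−1.10 ± 0.19 SE, limma adjusted p = 0.0112), Il4 (−0.66 ± 0.14 SE, limma adjusted p = 0.0317) and Il9 (−2.72 ± 0.34 SE, limma adjusted p = 0.00230) passed, all lower, and Il15 was at 0.85 ± 0.23 SE (limma adjusted p = 0.0740). Il7 and Il21 had a mean below 1 FPKM and were not tested.

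Of the 9 other JAK kinases and STATs 0 passed, 6 were lower, against 46.9% of all genes, and 3 higher, with a median log2 change of −0.19. Jak2, which serves other cytokine receptors, measured 109, 100.1 and 99.3 FPKM in controls and 60.6, 65.4 and 62.7 in DSS. Its log2 change of −0.70 ± 0.18 SE (limma adjusted p = 0.196) and its narrow DSS band were close to those of Il2ra. The STATs most tied to the family divided by library. Stat5b measured 21.4, 19.98 and 25.1 in controls, 7.74 in DSS replicate 1, and 18.9 and 22.8 in DSS replicates 2 and 3. Stat3 measured 77.9, 75.4 and 76.0 in controls, 25.7 in DSS replicate 1, and 63.3 and 68.2 in the other 2. As for Jak3 and Il4ra, the low value was that of DSS replicate 1. Without it the log2 changes were −0.084 for Stat5b and −0.21 for Stat3, against −0.52 and −0.65 with it, and Jak2 passed at −0.67 ± 0.12 SE (limma adjusted p = 0.0138).

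Among feedback inhibitors of JAK-STAT signalling, 10 of 12 tested were lower, against 46.9% of all genes, and 0 passed, with a median log2 change of −0.27. The count rested in part on DSS replicate 1. Without that library Socs3 (0.41), Pias3 (0.40), Sh2b3 (0.056) and Ptpn1 (0.047) turned above 0. Socs1, Socs2, Cish, Ptpn2, Ptpn6 and Ptprc stayed below 0. Socs2 (331 ± 33.4 and 198 ± 20.9) and the phosphatase gene Ptpn2 (53.2 ± 3.32 and 39.9 ± 1.64) had every DSS library below the controls, against 9.60% of all genes, and Ptpn11 (4.12 and 5.22) had every DSS library above them, against 6.35%. Socs2 passed without DSS replicate 1 (−0.80 ± 0.13 SE, limma adjusted p = 0.00999). Cish, a STAT5 target that dampens IL-2 signals, measured 224 ± 20.7 and 183 ± 20.1 FPKM with overlap. Of 14 survival and growth genes linked to STAT5, 11 were lower, against 46.9% of all genes, and 3 higher, and 0 passed (median −0.17). Bcl2l1, which encodes BCL-XL, measured 98.1, 115 and 99.3 in controls and 23.7, 49.3 and 52.4 in DSS (−1.37 ± 0.30 SE, limma adjusted p = 0.132). Bcl2 measured 19.2, 18.8 and 21.1 in controls and 35.2, 38.8 and 34.8 in DSS (0.85 ± 0.19 SE, limma adjusted p = 0.136). Each had no overlap between the groups, as had Pim3, Myc and Foxo1, all lower. That made 4 of the 14 lower and 1 higher without overlap, against 9.60% and 6.35% of all genes. Pim3 went from −0.76 to −0.23 when DSS replicate 1 was left out, Foxo1 from −0.75 to −0.47 and Myc from −0.37 to −0.27. Pim2 (0.043) and Ccnd3 (0.014) turned above 0 there and Cdkn1b (−0.052) below. Without DSS replicate 1, Bcl2l1 and Bcl2 passed (−1.02 ± 0.13 SE, limma adjusted p = 0.00241, and 0.87 ± 0.14 SE, limma adjusted p = 0.00904), as did 3.39% of all genes. Mcl1, another anti-apoptotic gene, measured 77.1, 72.8 and 67.6 in controls and 71.4, 120.1 and 94.8 in DSS, with overlap (0.36 ± 0.23 SE, limma adjusted p = 0.724, and 0.55 without DSS replicate 1). Mcl1 was chosen after its values were seen, as was Ptpn11. Adaptors and kinases of the PI3K and RAS branch had a median of −0.07, with 11 of 12 lower, against 46.9% of all genes, and 0 passing. Grb2 alone was separated (8.33% of the list, lower), against 9.60% of all genes. Shc1, Gab2, Sos1, Irs2, Pik3cd, Akt1 and Akt2 turned above 0 (0.0031 to 0.41) without DSS replicate 1. Grb2, Pik3r1, Pik3ca and Lck stayed below 0. The median of all genes in that fit was 0.12.

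Of other class I and II cytokine receptor genes 19 were tested, with 8 lower and 11 higher in DSS, 0 passing and a median log2 change of 0.04. In 4 of these all DSS libraries lay below all controls, and in 1 above, against 9.60% and 6.35% of all genes tested. Ifngr2, a chain of the interferon-γ receptor, measured 34.1 ± 1.51 and 16.9 ± 3.85 FPKM (−0.99 ± 0.22 SE, limma adjusted p = 0.136). Il10ra measured 79.5 ± 5.50 and 41.3 ± 15.8 (−1.01 ± 0.30 SE, limma adjusted p = 0.267), with 23.3 in DSS replicate 1 against 48.0 and 52.6 in the other 2 DSS libraries. Both passed without DSS replicate 1, Ifngr2 at −0.83 ± 0.15 SE (limma adjusted p = 0.0138) and Il10ra at −0.65 ± 0.13 SE (limma adjusted p = 0.0224). The other 13 of the 32 listed did not pass the filter.

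For the 3 chains of the IL-2 receptor, the genes with the closest profiles over the 6 libraries were sought among 4448 genes that averaged 10 FPKM or more, with predicted genes left out. Likeness was the root mean square difference of log2(FPKM + 1) values, each centred on its mean. Nearest to Il2ra were Castor1 (0.035), Ell2 (0.042) and Jak2 (0.052). Nearest to Il2rb were Inpp5b (0.091), Srebf2 (0.094) and Nfatc1 (0.10), all with their lowest value in DSS replicate 1. Nearest to Il2rg were Pabir1 (0.036), Tubb4b (0.041) and Tax1bp1 (0.043). These are descriptions over 6 libraries, and the genes share each library's depth.

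Other lymphocytes carry the same receptors, so their markers were read beside these results. Regulatory T cells are known for high Il2ra, and Foxp3, their defining gene, was at 0 to 0.852 FPKM in all libraries. The 5 regulatory T cell markers summed to 13.1 to 23.2 FPKM in controls and 12.0 to 22.2 in DSS. The 8 T cell markers found in the table summed to 24.4 to 35.4 in controls and 62.7, 22.1 and 35.1 in DSS replicates 1, 2 and 3. The ILC1 and NK cell markers, whose cells are known for Il2rb, summed to 33.6 to 70.7 and 52.4 to 66.3. The B cell markers summed to 23.2 to 34.96 in controls and 42.6 to 189 in DSS, in DSS mostly from Jchain. The 6 ILC3 markers summed to 235 to 342 in controls and 337, 180 and 83.2 in DSS replicates 1, 2 and 3, with Il22 the most abundant in each library. The mast cell markers summed to 57.9 to 67.3 and 21.0 to 44.4, nearly all from Kit. Epithelial markers summed to 11.1 to 18.5 and 26.6 to 30.3, without overlap. Monocyte and macrophage markers summed to 13.95 to 18.6 and 40.8 to 48.7. Dendritic cell markers summed to 88.5 to 100.4 in controls and 137 to 147 in DSS, also without overlap. Of the 3 tested, H2-Ab1 was higher in DSS (log2 change 0.77), Zbtb46 (−1.29) and Xcr1 (−1.38) were lower, and 0 passed. The part of these cells in the values of the 9 genes was not tested. The summed ILC2 markers were 4139 to 4433 FPKM in controls and 3025 to 3245 in DSS, and 9 of 10 of those markers were lower.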

How the data were processed

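Libraries came from SMART-Seq HT cDNA and the Nextera XT method, without strand, per the labels' protocols. Per the submitters' processing notes, Cutadapt 1.9, HISAT2 2.2.1 and mm10 were used. How fragments were counted, and over which gene models, is not given in the sources used here. Deposited values were FPKM for 23268 genes in 6 libraries. Within a gene these were whole multiples of a step, so whole fragments were recovered for 22701 of 22701 genes above 0 (100.0%, tolerance 0.001; a gene above 0 in 1 library meets it whatever its value).

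The test was limma 3.58.1 in R 4.3.3 (trend, two-sided) on log2(FPKM + 1), keeping genes that averaged 1 FPKM or more, with Benjamini-Hochberg adjustment over all of them and a threshold of 0.05; fold changes on this scale understate those of low genes. Ratios between members were compared by exact permutation, adjusted over 10. The code was tested on simulated data. Deviations from the group means correlated between libraries of the same number (0.189, 0.262 and 0.545, each above 0.1), which by the rule used marks the numbers as pairs, from the data and not the labels. The p-values reported take no account of pairs; the replicate block is an alternative. Control replicate 1 correlated more with DSS replicate 2 (0.345).

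The members and lists were chosen with earlier results of these data known. Named genes were the 9 members, up to 4 genes of each pathway list by smallest p with the cytokines and chains that members bind, and the 3 nearest profiles of each IL-2 receptor chain; not all that the rule allows are reported. Pathway genes named only for their values without DSS replicate 1 were added after seeing the data. Coordinates and overlaps are from GENCODE M21 (GRCm38, the same build as mm10), 1-based. Alternatives were pseudocounts of 0.1 and 5, no filter or a mean of 5, median-of-ratios scaling, quantile normalization, the replicate block, voom, leaving out libraries, and, chosen after seeing the data, removal of each library's length trend (lowess, span 0.3) and pathway genes without DSS replicate 1. Fits without a library kept the 6-library genes that were above 0 in a library kept; other gene sets were tried too, and this one was settled on after the counts had been seen. Figures were drawn with matplotlib 3.10.9.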

Additional observations from a re-analysis of the deposited data

How the results depend on the processing

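None of the 9 genes passed in 15 of 16 alternatives; Il2ra passed without DSS replicate 1, so the count was 0 to 1 when single libraries were left out. The count over all genes, 27, was 4 to 413 when single libraries were left out (413 without DSS replicate 1, 19 without DSS replicate 3 and 4 to 7 without each of the others), 5 without both replicates 3 (5 higher, 0 lower), 9 after median-of-ratios scaling (5 higher and 4 lower, against 9 and 18), and 16 with the length trend removed; the cause was not tested. These counts depend on which genes stay in the test, an alternative chosen after seeing the data. Refiltered on the libraries kept, the count was 435 without DSS replicate 1, 15 without DSS replicate 3 and 8 without both replicates 3. With genes at 0 in every kept library retained it was 413, 10 and 0. Under either, Il2ra passed without DSS replicate 1 (limma adjusted p = 0.0130 and 0.0139) and none of the 9 otherwise; the range over single libraries was 4 to 435. With the replicate block 22 genes passed, and the block changed no call among the 9 (Il2ra −0.70, limma adjusted p = 0.238). The log2 ratios with the block kept their values and, with 3 pairs, could not go below an exact p of 0.25.

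Directions of Il2ra, Il2rb, Il2rg, Il4ra, Il15ra, Il21r and Jak1 held in all 16 alternatives. Without DSS replicate 1, Il7r turned to −0.0136 and Jak3 to 0.4218 (up to 0.1224, and down to −0.5244, without other single libraries). Ratio differences that turned without that library were Il2rb to Il2rg (0.0061), Il4ra to Il2rg (0.4274), Il2ra to Il2rb (−0.1435) and Jak3 to Jak1 (0.4414). Over single libraries left out these ran from −0.84 to 0.0061, −0.49 to 0.43, −0.14 to 0.43 and −0.25 to 0.44. Jak3 to Jak1, at −0.0038, also turned without control replicate 3 (0.0723), as a ratio of FPKM + 1 (0.0087) and with the length trend removed (0.0148). The other 6 ratios kept their sign in all 10 of their alternatives. Depth limits Il21r and Il15ra most, with 148 and 383 fragments in their thinnest libraries.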
